A study of Mus musculus with 4 samples.

Results

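Nuclear receptor genes and the genes of their coactivators were followed in SMRTmRID and wild-type 3T3-MEFs. The group was defined by gene class and holds 49 symbols, 38 of receptors and 11 of coregulators, out of 18193 genes measured. For 48 of them the arrays had a probe set named by that symbol alone. Nr1h2 was not analysed here, and Pparg was kept out of the group. Of the 48 genes, 33 (24 receptors and 9 coactivators) had a mean signal over the 4 arrays above 35.1, the median of all values, and were tested among 11057 genes. The other 15 are described by their signals and by a further fit of all genes without a filter. The coregulators are called coactivators below, although Nrip1 among them encodes a repressor of receptors.

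Total RNA was hybridised to 4 single-colour Affymetrix arrays, 2 from cells with SMRTmRID and 2 from wild-type cells. Both groups are 3T3-MEFs, mouse embryonic fibroblasts turned into a permanent line by serial passage, taken undifferentiated at confluence. SMRT is a corepressor protein, and in SMRTmRID its receptor interaction domains are altered. The arrays of a genotype are called technical replicates in the labels, so every p-value measures the spread between technical replicates, and line and genotype cannot be told apart. The transcript of the mutated corepressor gene was not analysed here, so the genotype labels were not checked. In bulk RNA, fewer cells that use a gene and less RNA per cell cannot be told apart.

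Nuclear receptors are transcription factors that carry a zinc-finger DNA-binding domain and, in most cases, a pocket for a small fat-soluble ligand such as a steroid, a retinoid, vitamin D, thyroid hormone or a fatty acid. Without ligand, several of them hold corepressors such as SMRT at their target genes. Ligand binding reshapes the pocket, releases the corepressor and lets coactivators dock, among them the p160 proteins, the acetyltransferases CBP and p300, and the Mediator complex. In embryonic fibroblasts these receptors are known for their part in adipocyte and osteoblast differentiation, in the glucocorticoid response and in the circadian clock.

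The promoters of 5 member genes are shown as examples, those of the NR4A family because its members share letters there. Other genes with wide differences, such as Rora, Nrip1 and Rorb, are not shown. Each is the 250 bases before the gene's start in RefSeq, build GRCm38.p6, in the gene's direction. The Vdr promoter is shown because Vdr had, with Rora, the widest difference between the genotypes. Capitals in it mark the GC box GGGCGG, read on both strands.
Vdr (chr15:97908297-97908546, minus strand): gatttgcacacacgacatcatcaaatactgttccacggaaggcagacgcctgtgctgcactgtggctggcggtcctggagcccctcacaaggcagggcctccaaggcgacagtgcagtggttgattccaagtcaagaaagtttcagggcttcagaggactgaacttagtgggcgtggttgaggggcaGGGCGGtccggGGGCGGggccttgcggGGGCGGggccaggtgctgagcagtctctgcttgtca
In the Nr1d2 promoter, capitals mark AGGTCA, the core letters that nuclear receptors bind, read on both strands.
Nr1d2 (chr14:18239107-18239356, minus strand): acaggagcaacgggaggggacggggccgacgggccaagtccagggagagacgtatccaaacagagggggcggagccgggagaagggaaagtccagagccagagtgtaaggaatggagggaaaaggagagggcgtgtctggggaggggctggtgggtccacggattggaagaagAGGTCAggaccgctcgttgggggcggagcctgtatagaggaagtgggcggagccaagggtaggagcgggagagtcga
In the promoters of the NR4A family, capitals mark TGACG or its reverse CGTCA, the core of the cyclic AMP response element.
Nr4a1 (chr15:101266596-101266845, plus strand): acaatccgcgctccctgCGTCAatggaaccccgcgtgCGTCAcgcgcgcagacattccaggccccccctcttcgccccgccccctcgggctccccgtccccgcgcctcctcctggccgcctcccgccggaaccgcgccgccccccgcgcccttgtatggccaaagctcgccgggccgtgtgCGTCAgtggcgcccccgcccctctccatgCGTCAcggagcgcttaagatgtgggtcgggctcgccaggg
Nr4a2 (chr2:57124004-57124253, minus strand): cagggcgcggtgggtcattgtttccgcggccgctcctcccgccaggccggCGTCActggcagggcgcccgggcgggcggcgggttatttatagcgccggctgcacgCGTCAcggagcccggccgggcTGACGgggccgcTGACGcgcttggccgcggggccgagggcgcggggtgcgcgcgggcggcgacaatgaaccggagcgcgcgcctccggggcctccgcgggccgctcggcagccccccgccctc
Nr4a3 (chr4:48045055-48045304, plus strand): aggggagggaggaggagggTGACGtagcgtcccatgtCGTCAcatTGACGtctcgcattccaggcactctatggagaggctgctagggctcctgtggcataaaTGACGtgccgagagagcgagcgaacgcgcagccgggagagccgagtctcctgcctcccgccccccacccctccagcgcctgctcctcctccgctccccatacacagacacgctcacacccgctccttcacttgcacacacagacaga
TGACG lies within the full palindrome TGACGTCA, and it was chosen after these sequences had been read. Each of the 3 NR4A promoters held 4 matches to TGACG. Of all 32851 RefSeq promoters of this length, 17.8% held at least 1 match and 0.137% held at least 4. That palindrome, which would count as 2 matches of its core, was in none of the promoters of the 43 members that had one in the table, and in 1.55% of all promoters. The 43 members have 62 promoters in the table. AGGTCA was found in 9 of these 62 promoters (14.5%), and in 14.02% of all promoters. GGGCGG was found in 30 of the 62 (48.4%), and in 32.7% of all promoters. Promoters of the same gene can overlap, and the difference between these shares was not tested. The Vdr promoter held 3 matches to it, and 8.47% of all promoters held at least 3. These are counts of letters and not of bound sites.

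Most receptor and coactivator genes above the filter differed between the genotypes, more often upward than downward. Of the 24 tested receptor genes 12 were higher and 8 lower in SMRTmRID, and 4 did not pass (limma, Benjamini-Hochberg adjusted p under 0.05). Without SMRTmRID replicate 1 the lower receptor genes numbered 5. Of the 9 coactivator genes 6 were higher, 1 was lower and 2 did not pass. Together 27 of 33 members passed, or 81.8%, against 65.2% of all tested genes, and their median log2 difference was 0.31 against -0.05 over all tested genes. In one direction, 18 members were higher, where 30.3% of all tested genes were, and 9 were lower, where 35.0% of all were. At least 2-fold differences on the log2 scale were found for 6 members, 18.2% of the 33 against 16.5% of all tested genes. All 6 were higher in SMRTmRID. Such rises were found for 9.69% of all tested genes and such falls for 6.79%. The greatest fall of a member was that of Nr2f6 at -0.70. Rora and Rorb, among these 6, had wild-type means of 30.9 and 23.5, under the filter. They were tested through their level in SMRTmRID, and they also count among the 12 higher receptor genes. SMRTmRID and wild-type arrays were fully separated for 30 of the 33 members and for 81.5% of all tested genes. The difference between a member share and the share of all genes was not tested. Each difference is that of the SMRTmRID mean from the wild-type mean of log2(signal + 16), with limma's standard error after ±. Adding 16 makes changes of dim genes look smaller than they are. Signals themselves are linear MAS5 values. Probe sets of different genes bind their targets differently, so signals are compared within a gene and not between genes.

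**Figure D1:**
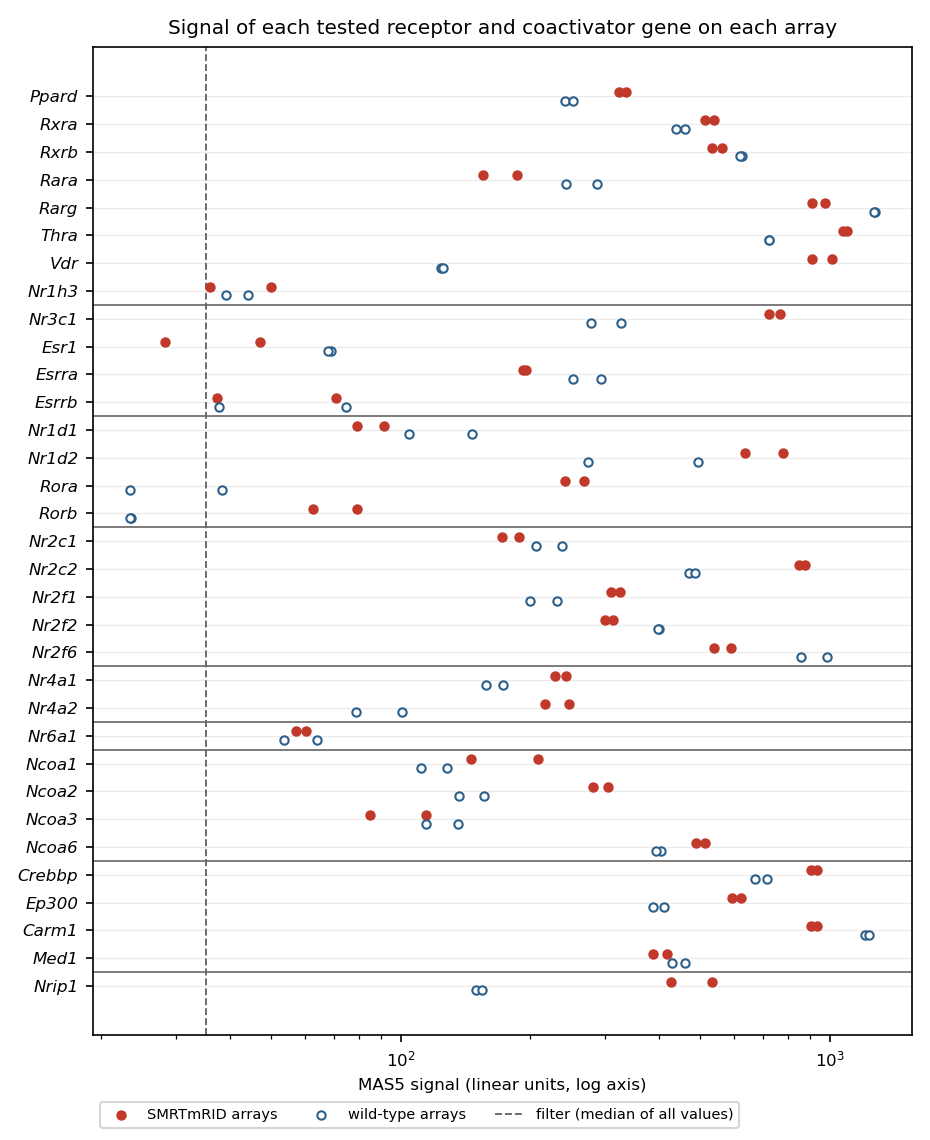
MAS5 signal on a log axis of the 33 tested receptor and coactivator genes, grouped by role between the horizontal lines. Filled points are the 2 SMRTmRID arrays, open points the 2 wild-type arrays, and the dashed line is the filter at 35.1. Vdr and Rora have the widest gaps between the genotypes, and Nr1h3, Esrrb and Nr6a1 overlap.

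**Figure D2:**
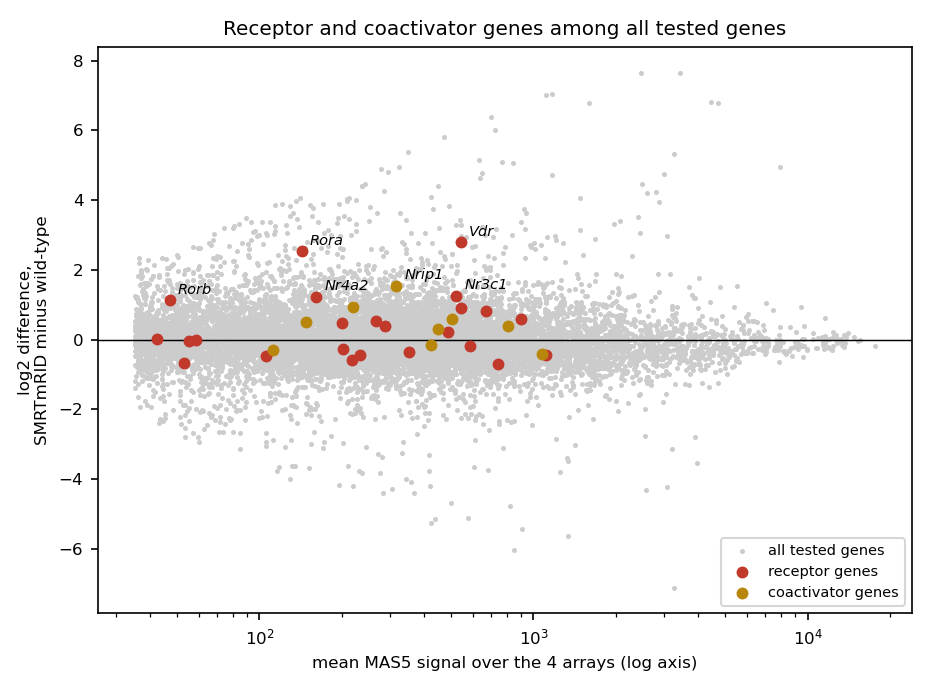
Log2 difference (SMRTmRID minus wild-type) against the mean MAS5 signal of the 4 arrays on a log axis, for all 11057 tested genes in grey, the receptor genes in red and the coactivator genes in gold. The 6 members with at least a 2-fold difference are named, and all of them lie above 0.

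The vitamin D receptor gene Vdr and the orphan receptor gene Rora differed most in the group. Their order depended on the constant added to the signals, with 2.79 for Vdr and 2.55 for Rora when 16 was added and 2.93 and 3.04 when 1 was added. Vdr, the receptor for the hormonal form of vitamin D, had signals of 911 and 1013 on the SMRTmRID arrays, against 124 and 125 on the wild-type arrays. Both SMRTmRID arrays were several-fold above both wild-type arrays, with a 7.71-fold ratio of the means and a difference of 2.79 ± 0.09 log2 units (limma, adjusted p = 8.88e-09). Its other probe set had 813 and 708 in SMRTmRID and 139 and 133 in wild-type cells, so both probe sets separated the genotypes in the same direction.

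The RXR genes encode the shared partners with which Vdr, the retinoic acid, thyroid hormone, peroxisome proliferator-activated and liver X receptors bind DNA, and they differed little. Rxra had 513 and 538 in SMRTmRID and 461 and 439 in wild-type cells, a difference of 0.22 ± 0.07 log2 units (limma, adjusted p = 0.0232). Rxrb had 532 and 562 in SMRTmRID and 624 and 619.9 in wild-type cells, a difference of -0.18 ± 0.07 log2 units (limma, adjusted p = 0.0351). The arrays did not overlap for either gene, but both calls were narrow. The Rxra call was lost without SMRTmRID replicate 2 (adjusted p = 0.115 by limma) or wild-type replicate 2 (0.0965), with quantile normalization, without a variance trend and with other choices of its probe set. The Rxrb call was lost without SMRTmRID replicate 1 (adjusted p = 0.167 by limma), wild-type replicate 1 (0.0950) or wild-type replicate 2 (0.0819) and without a variance trend.

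Of the receptors for retinoic acid, Rara and Rarg fell, and Rarb was below the filter and is given with the low members. The thyroid hormone receptor gene Thra rose. Rara had 155 and 186 in SMRTmRID, against 287 and 243 in wild-type cells, a difference of -0.59 ± 0.13 log2 units (limma, adjusted p = 0.00267). Rarg had 909 and 975 in SMRTmRID, against 1274 and 1270.3 in wild-type cells, a difference of -0.43 ± 0.06 log2 units (limma, adjusted p = 1.13e-04). The wild-type arrays lay above the SMRTmRID arrays for both genes, and the other Rarg probe set gave -0.60. Thra had 1074 and 1099 in SMRTmRID, against 721 and 721 in wild-type cells, a difference of 0.58 ± 0.05 log2 units (limma, adjusted p = 1.15e-05). Its other probe sets gave 0.29 and 0.06, and with the brighter of these in its place the gene did not pass (adjusted p = 0.0581 by limma).

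Of the receptors for fatty acids and oxysterols, Ppard rose and Nr1h3 did not pass. Ppard, the broadly used peroxisome proliferator-activated receptor of fatty acid oxidation, had 335 and 323 in SMRTmRID, against 242 and 253 in wild-type cells. Its arrays did not overlap, and the difference was 0.39 ± 0.09 log2 units (limma, adjusted p = 0.00355), or 0.21 with adjusted p = 0.231 when its dim second probe set was averaged in. Nr1h3, the liver X receptor alpha gene of cholesterol sensing, had 49.8 and 35.9 in SMRTmRID and 39.3 and 44.0 in wild-type cells. These arrays overlapped, and the log2 difference of 0.02 had a 95% interval from -0.55 to 0.59. Pparg, the adipogenic receptor kept out of the group, had 121 and 123 in SMRTmRID and 85.8 and 58.4 in wild-type cells.

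Among steroid receptors, the glucocorticoid receptor gene rose on every probe set above the filter. Nr3c1, which mediates the response to cortisol and corticosterone, had 724 and 766 in SMRTmRID, against 326 and 278 in wild-type cells. Both SMRTmRID arrays were more than 2-fold above both wild-type arrays, with a difference of 1.26 ± 0.09 log2 units (limma, adjusted p = 1.40e-06). Its 5 probe sets above the filter gave log2 differences between 0.53 and 1.26, each without overlap between the genotypes. Esr1, the estrogen receptor alpha gene, was near the filter with 28.2 and 46.9 in SMRTmRID, against 68.8 and 67.6 in wild-type cells. The wild-type arrays were higher, and the difference was -0.68 ± 0.25 log2 units (limma, adjusted p = 0.0372). That call was lost without SMRTmRID replicate 1 (-0.42, adjusted p = 0.200 by limma), wild-type replicate 1 (adjusted p = 0.109) or wild-type replicate 2 (0.103), without a filter (0.104) and with the mean of its probe sets (-0.32, adjusted p = 0.126).

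The estrogen-related receptors are orphan receptors, without a settled natural ligand, and Esrra is known for driving mitochondrial genes together with PGC1 proteins. Esrra had 193 and 196 in SMRTmRID, against 293 and 253 in wild-type cells, a difference of -0.45 ± 0.11 log2 units (limma, adjusted p = 0.00475). The SMRTmRID arrays were lower, but a second, dimmer probe set overlapped, with a difference of -0.14 that did not pass in its place (adjusted p = 0.610 by limma), and the mean of both gave -0.30 (adjusted p = 0.0551). Esrrb had 70.7 and 37.4 in SMRTmRID and 74.7 and 37.8 in wild-type cells, so the arrays of each genotype spread more widely than the genotypes differed.

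The circadian receptors showed both ROR genes higher and the REV-ERB genes split. Receptors of these families bind the same DNA elements, where ROR proteins activate and REV-ERB proteins repress. Rora had 268 and 241 in SMRTmRID, against 38.3 and 23.4 in wild-type cells, an 8.26-fold ratio of the means and a difference of 2.55 ± 0.19 log2 units (limma, adjusted p = 2.71e-06). All 6 of its probe sets above the filter were higher in SMRTmRID without overlap, with differences between 1.43 and 2.55, and the mean over all its probe sets was 1.46. The wild-type mean of Rora, 30.9, was under the filter, so Rora was tested through its level in SMRTmRID. Rorb had 78.9 and 62.4 in SMRTmRID, against 23.6 and 23.4 in wild-type cells, a difference of 1.13 ± 0.25 log2 units (limma, adjusted p = 0.00280). Its wild-type signals were below the filter on both arrays, so Rorb was tested only because of its level in SMRTmRID, and it could hardly have been tested without a difference. A second Rorb probe set gave 2.14, and with 64 added to the signals the difference was 0.62.

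Nr1d2, the REV-ERB beta gene, had 777 and 636 in SMRTmRID, against 494 and 273 in wild-type cells, a difference of 0.91 ± 0.21 log2 units (limma, adjusted p = 0.00424). Both SMRTmRID arrays were above both wild-type arrays, while the wild-type arrays lay far apart. Without wild-type replicate 2 the difference was 0.50 (adjusted p = 0.00305 by limma), and the call was lost without a variance trend (0.0624) and on its second probe set (0.28, adjusted p = 0.302). Nr1d1, the REV-ERB alpha gene, had 91.3 and 79.1 in SMRTmRID, against 104 and 147 in wild-type cells. The SMRTmRID arrays were lower, with a difference of -0.47 ± 0.19 log2 units that only just passed (limma, adjusted p = 0.0493). It did not pass under 7 of 13 alternatives, among them those without SMRTmRID replicate 1 (adjusted p = 0.0542 by limma), SMRTmRID replicate 2 (0.163) or wild-type replicate 2 (-0.25, adjusted p = 0.340).

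The COUP transcription factors, orphan receptors that mostly repress and shape mesenchymal and neural development, changed in opposite directions. Nr2f1 rose, with 310.1 and 325 in SMRTmRID, against 201 and 231 in wild-type cells, a difference of 0.53 ± 0.10 log2 units (limma, adjusted p = 0.00136). Nr2f2 fell, with 312 and 300.3 in SMRTmRID, against 401 and 397 in wild-type cells, a difference of -0.36 ± 0.08 log2 units (limma, adjusted p = 0.00273). The arrays did not overlap for either gene, and all 4 Nr2f2 probe sets above the filter were lower, between -0.65 and -0.26. With all 6 of its probe sets averaged, Nr2f2 had -0.35 and did not pass (adjusted p = 0.0654 by limma). Nr2f6, their more distant relative, had 539 and 588 in SMRTmRID, against 859.6 and 988 in wild-type cells, a difference of -0.70 ± 0.08 log2 units (limma, adjusted p = 4.22e-05), and -0.69 on its other probe set. The difference between the Nr2f1 and Nr2f2 responses was not tested.

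The testicular orphan receptors bind the same direct repeats as the retinoid receptors. Nr2c2 had 876 and 850.1 in SMRTmRID, against 469.6 and 484 in wild-type cells, a difference of 0.83 ± 0.06 log2 units (limma, adjusted p = 2.32e-06). All 3 Nr2c2 probe sets above the filter rose without overlap between the genotypes, while the mean of all 6, dim ones included, was 0.41. For Nr2c1 the brightest probe set had 188 and 173 in SMRTmRID and 237 and 207 in wild-type cells, a log2 difference of -0.27 that did not pass (adjusted p = 0.0647 by limma). Its other probe sets above the filter pointed the other way, with 0.33 and 0.44, so the direction of Nr2c1 depended on the probe set. Without wild-type replicate 2 the brightest one passed at -0.37 (adjusted p = 0.0459 by limma).

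**Figure D3:**
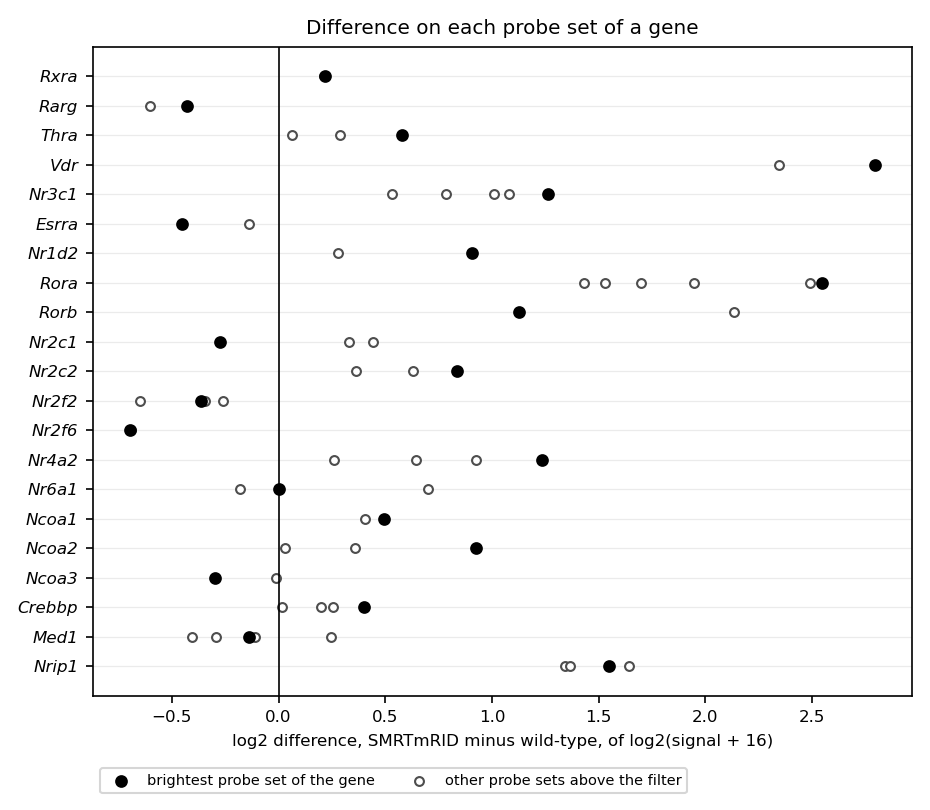
Log2 difference (SMRTmRID minus wild-type) on every probe set above the filter, for the 21 tested members that have several. The filled point is the brightest probe set, open points are the others. For 18 of the 21 genes all points lie on the same side of 0, and Nr2c1, Nr6a1 and Med1 have points on both sides.

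The NR4A genes, immediate early genes whose products work without a ligand, were higher where they were measurable. Nr4a1 had 243 and 229 in SMRTmRID, against 173 and 158 in wild-type cells, a difference of 0.47 ± 0.11 log2 units (limma, adjusted p = 0.00420). Nr4a2 had 247 and 217 in SMRTmRID, against 78.8 and 101 in wild-type cells, a difference of 1.23 ± 0.15 log2 units (limma, adjusted p = 6.36e-05). Neither gene had overlapping arrays. Of the 4 Nr4a2 probe sets above the filter 3 were without overlap and the other gave 0.26 with overlap, and the mean of all 6 probe sets was 0.73. Nr4a3 stayed low, with 10.8 and 10.1 in SMRTmRID and 9.45 and 10.3 in wild-type cells. Its promoter, shown above, held as many TGACG matches as those of Nr4a1 and Nr4a2. A link between these letters and the signals was not tested.

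Of the receptors active in early embryos and steroid-producing tissues, Nr6a1, the germ cell nuclear factor gene, was the only one above the filter. It had 56.9997 and 60.2 in SMRTmRID and 53.5 and 63.9 in wild-type cells. The arrays overlapped, and the log2 difference of 0.00 had a 95% interval from -0.47 to 0.47. Its 3 probe sets above the filter ranged from -0.18 to 0.70.

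Coregulator genes of the group were higher in 6 of 9 cases, where 30.3% of all tested genes were. Their median log2 difference was 0.40, against -0.05 over all tested genes. Without Nrip1, whose product represses receptors, 5 of 8 were higher and the median was 0.36. The 37 tested coregulators outside the group, given below, did not share this, with 14 higher, 16 lower and a median of -0.10. The p160 proteins dock directly on liganded receptors. Ncoa2 had 304 and 281 in SMRTmRID, against 137 and 157 in wild-type cells, a difference of 0.93 ± 0.11 log2 units (limma, adjusted p = 6.98e-05). The SMRTmRID arrays were well above the wild-type arrays, but its second probe set gave 0.36, which did not pass (limma, adjusted p = 0.102), and the mean of its 4 probe sets gave 0.48. Ncoa1 had 146 and 209 in SMRTmRID, against 128 and 111 in wild-type cells, a difference of 0.50 ± 0.17 log2 units (limma, adjusted p = 0.0292). The SMRTmRID arrays were higher, although they lay further apart than the wild-type arrays. The Ncoa1 call was lost without SMRTmRID replicate 2 (0.26, adjusted p = 0.243 by limma) or wild-type replicate 2 (0.41, adjusted p = 0.110), without a filter (0.0823), with quantile normalization (0.0941) and without a variance trend (0.0799). Ncoa3 did not pass, with 84.8 and 114 in SMRTmRID and 136 and 115 in wild-type cells and a 95% interval of the difference from -0.69 to 0.10.

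Ncoa6, which brings histone methyltransferases to receptors, had 488 and 513 in SMRTmRID, against 405 and 394 in wild-type cells, a difference of 0.31 ± 0.07 log2 units (limma, adjusted p = 0.00371). The acetyltransferase genes both rose. Crebbp, which encodes CBP, had 932 and 906 in SMRTmRID, against 671 and 713 in wild-type cells, a difference of 0.40 ± 0.06 log2 units (limma, adjusted p = 2.66e-04), or 0.22 as the mean of its 4 probe sets. Ep300, which encodes p300, had 592 and 620.4 in SMRTmRID, against 411 and 387 in wild-type cells, a difference of 0.58 ± 0.07 log2 units (limma, adjusted p = 6.65e-05). For these 3 genes no SMRTmRID array overlapped a wild-type array.

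Carm1, the arginine methyltransferase that works with the p160 proteins, was the coactivator gene that fell. It had 904 and 937 in SMRTmRID, against 1207 and 1233 in wild-type cells, a difference of -0.40 ± 0.05 log2 units (limma, adjusted p = 1.24e-04). Med1, the Mediator subunit that contacts receptors, had 388 and 418 in SMRTmRID and 429.7 and 461 in wild-type cells. Its arrays did not overlap, but the log2 difference of -0.14 did not pass (adjusted p = 0.150 by limma), and 1 of its 6 probe sets above the filter pointed upward.

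Nrip1, which encodes RIP140, a ligand-dependent repressor of receptors with a role in fat storage, rose most among the 9 tested coregulator genes of the group. It had 426 and 533 in SMRTmRID, against 149.6 and 155 in wild-type cells, a 3.15-fold ratio of the means and a difference of 1.55 ± 0.12 log2 units (limma, adjusted p = 2.38e-06). Both SMRTmRID arrays exceeded both wild-type arrays on each of its 4 probe sets above the filter, with differences between 1.34 and 1.64.

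**Figure D4:**
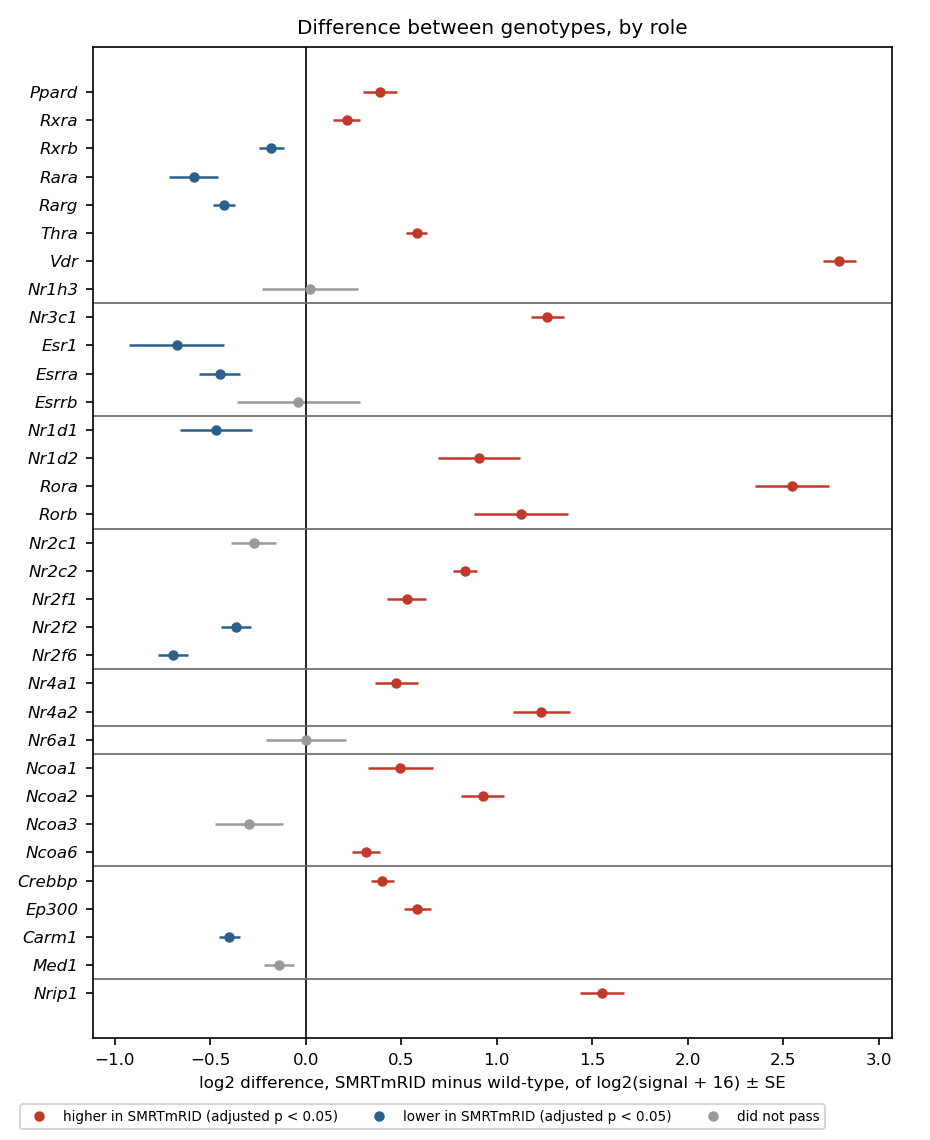
Log2 difference (SMRTmRID minus wild-type) with limma's standard error for the 33 tested genes, in the order of their roles. Red marks the 18 genes that were higher, blue the 9 that were lower and grey the 6 that did not pass. Vdr, Rora, Nrip1, Nr3c1, Nr4a2 and Rorb exceed 1, and no gene lies below -1.

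The 15 members below the filter, 13 receptors and 2 coactivators, had signals between 0.753 and 46.4. For scale, 39 olfactory receptor genes, which fibroblasts are not known to use, had a median mean signal of 12.2, a 95th percentile of 28.4 and a maximum of 31.5. Detection calls were not used here, so these genes are described as low and not as absent. Of the 15 genes 9 were at or under 28.4 on every array, namely Ppara, Rxrg, Nr3c2, Esr2, Pgr, Nr4a3, Nr5a2, Nr0b1 and Nr0b2. They include the receptors of liver and muscle fatty acid oxidation, of mineralocorticoids and of progesterone. Of the 33 tested members 30 were above 28.4 on all 4 arrays, and the exceptions were Esr1, Rora and Rorb. Esr1 was below it on 1 SMRTmRID array, and Rora and Rorb were below it on wild-type arrays.

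Some low members were higher in SMRTmRID, near the level of the olfactory genes. Rarb, a retinoic acid receptor gene that retinoic acid itself induces, had 33.5 and 28.0 in SMRTmRID and 13.9 and 0.753 in wild-type cells. Ppargc1b, the PGC1 beta gene, had 26.048 and 30.4 in SMRTmRID and 3.47 and 7.28 in wild-type cells. When all genes were tested without a filter, Rarb passed at 1.06 (adjusted p = 0.0485 by limma) and Ppargc1b did at 1.05 (adjusted p = 0.0159), and the 13 others did not. Ppargc1a, the cold- and fasting-induced partner of Esrra, had 35.7 and 20.6 in SMRTmRID and 39.7 and 12.6 in wild-type cells, which overlapped. Thrb had 33.4 and 20.8 in SMRTmRID and 46.4 and 36.3 in wild-type cells. Nr1h4, the bile acid receptor gene, had 33.3 and 41.0 in SMRTmRID and 29.4 and 19.2 in wild-type cells. The arrays of 8 of the 15 genes were separated by genotype, 6 of them higher and 2 lower in SMRTmRID, where 38.7% of all 7136 untested genes did not overlap.

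**Figure D5:**
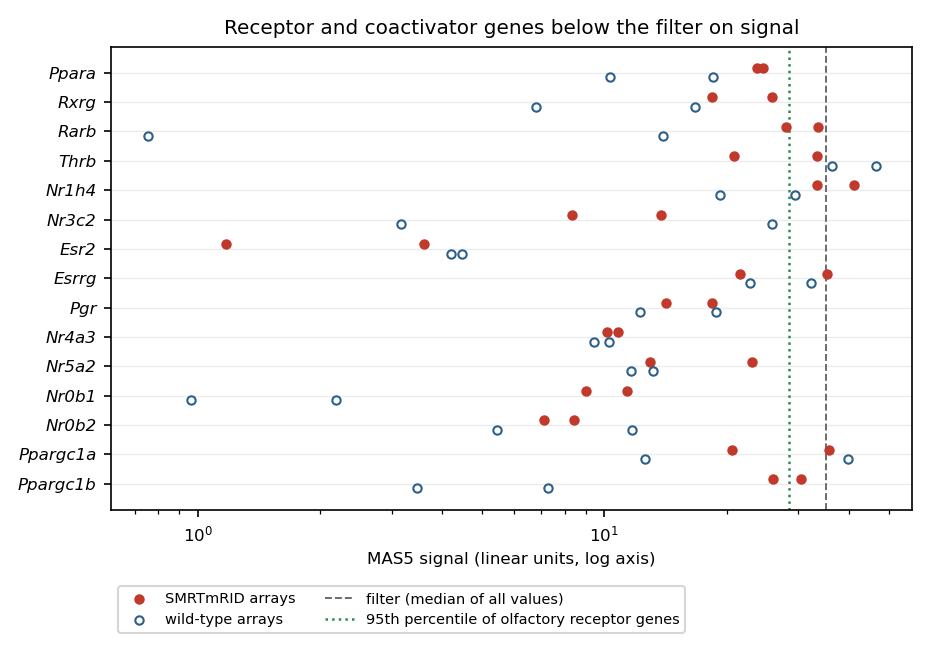
MAS5 signal on a log axis of the 15 members below the filter, with filled points for the 2 SMRTmRID arrays and open points for the 2 wild-type arrays. The dotted line is the 95th percentile of olfactory receptor genes (28.4) and the dashed line the filter (35.1). The points of 9 genes lie at or left of the dotted line.

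Further genes of receptor signalling went both ways. Over all tested genes 65.2% passed, 30.3% higher and 35.0% lower. Of 31 tested subunits of Mediator other than Med1, 8 were higher and 11 lower, together 61.3%. The other 12 did not pass, and the median difference was -0.11. Med13 and Med13l, parts of the kinase module that detaches from Mediator, rose by 1.48 and 1.22, while Med27 and Med29 had -1.01 and -0.77. Of 37 other receptor coregulators 14 were higher and 16 lower, together 81.1%, 7 did not pass, and the median was -0.10. The difference between these shares and that of all genes was not tested. The acetyltransferase gene Kat2b (PCAF) rose by 2.00 and the corepressor gene Lcor, under the filter on both wild-type arrays, by 1.41, while the arginine methyltransferase gene Prmt1 had -1.29 and Rbm14 -1.26. The medians of both lists were close to the -0.05 of all tested genes.

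Of 14 tested enzymes and carriers of receptor ligands 8 were higher and 4 lower, and 7 of the 14 differed at least 2-fold. Over all tested genes 30.3% were higher, 35.0% lower and 16.5% changed at least 2-fold. The 2-fold shares were 50.0% here and 40.0% of the directly controlled genes below, and neither was tested against that of all genes. Ptgis, the prostacyclin synthase gene, fell to 24.3 and 27.4 in SMRTmRID, against 1681 and 1893 in wild-type cells, a log2 difference of -5.43. Ptges, a prostaglandin E synthase gene, rose by 3.63, Cyp7b1, which breaks down oxysterols, by 2.74 and the fatty acid carrier gene Fabp4 by 2.65. Ptgis was under the filter on both SMRTmRID arrays, and Ptges and Hsd11b1, given under the other observations, on both wild-type arrays. Each of them was tested through the genotype where it is high, and each counts among the 7. Of 20 tested genes that receptors control directly 10 were higher, 6 lower and 4 did not pass. Angptl4, a PPAR target, rose by 4.05, the liver X receptor targets Abca1 and Abcg1 by 2.66 and 1.85, and Klf9, a target of thyroid hormone and glucocorticoid receptors, by 1.44. Other targets of the same receptors fell, Srebf1 of the liver X receptors with -0.55 (limma, adjusted p = 1.05e-04) and Cpt1a of the PPARs with -0.39 (limma, adjusted p = 9.11e-05). Abcg1 was under the filter on both wild-type arrays and was tested through its level in SMRTmRID. The receptor genes Nr1h3, Ppard, Thra and Nr3c1 had differences of 0.02, 0.39, 0.58 and 1.26. Nr1h2 was not analysed and Ppara was below the filter, and a link between receptors and targets was not tested. Of the 7 measured receptor genes outside the group Pparg was tested, and it passed at 0.66 (adjusted p = 0.0124 by limma). That call was lost without wild-type replicate 2 (0.44, adjusted p = 0.0751 by limma).

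Markers of fibroblasts and of other cells were read on the same arrays. All 15 measured fibroblast markers had a mean above the filter, and 13 of them were above it on all 4 arrays. Their summed signal was 121425 to 127438 in SMRTmRID and 101895 to 104180 in wild-type cells. Of the 15, 7 were higher, 6 lower (Col5a1, Col6a1, Fn1, Vim, S100a4 and P4hb, between -0.31 and -0.11) and 2 did not pass. Among those that rose, Thy1, Dcn and Lum were low in wild-type cells, with signals at most 20.6, 63.7 and 3.25 there, against at least 3172, 8777 and 176 in SMRTmRID. Thy1 and Lum were under the filter on both wild-type arrays and were tested through their levels in SMRTmRID. Summed signals of blood cell markers were 550 to 583 in SMRTmRID and 342 to 562 in wild-type cells (9 genes, 4 above the filter), and those of epithelial markers 311 to 363 in SMRTmRID and 339 to 345 in wild-type cells (8 genes, 3 above it). Single markers within these sums stood apart between the genotypes. Krt19 had 53.9 and 82.8 in SMRTmRID and 6.11 and 4.98 in wild-type cells, Cdh1 had 2.41 and 1.61 in SMRTmRID and 55.9 and 42.3 in wild-type cells, and Epcam fell by 0.37. Of the blood cell markers Lyz2 had 105 and 95.3 in SMRTmRID and 27.4 and 15.6 in wild-type cells, and Cd14 rose by 0.41. Krt19 and Lyz2 were likewise under the filter on both wild-type arrays and were tested through their levels in SMRTmRID. Endothelial markers summed to 76.8 to 81.2 in SMRTmRID and 74.3 to 87.7 in wild-type cells (6 genes, none above the filter) and mature adipocyte markers to 46.1 to 63.0 in SMRTmRID and 32.1 to 52.0 in wild-type cells (4 genes, none above it). Skeletal muscle markers summed to 105 to 116 in SMRTmRID and 256 to 412 in wild-type cells (6 genes, 2 above the filter), a gap carried by Acta1, while Myod1, Myog and Myf5 were at most 27.6. No marker was at 0, and the part of these differences in the receptor results was not tested.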

How the data were processed

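Total RNA was measured on 4 Affymetrix arrays, technical replicates 1 and 2 of SMRTmRID and of wild-type 3T3-MEFs. The authors deposited linear intensities, and MAS5 is named in the submitters' processing notes. Means trimmed by 2% at each end came to 199.93 to 199.94 on the 4 arrays, which shows scaling to a common level before deposit. The number of arrays limits the precision.

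Of 45101 probe sets 64 controls were left out. GEO's platform annotation gave 1 symbol for 34945 probe sets, several for 932 (not named) and none here for 9160. Each of 18193 genes was represented by its brightest probe set (mean of 4 arrays). Genes with a mean signal above the median of all values, 35.1, were tested (11057 genes), on log2(signal + 16), with limma 3.58.1 in R 4.3.3 (lmFit, eBayes with a mean-variance trend, all 4 arrays, no covariates, two-sided, Benjamini-Hochberg over all tested genes, threshold 0.05). Signals with 2 arrays per genotype are given singly. Pearson's r over the tested genes was 0.991 within each genotype and 0.860 to 0.861 between them. The script was tested on simulated data. Same-numbered arrays did not deviate together over the tested genes as a whole (r = 0.0122 across genes). This value cannot exclude a step shared by same-numbered arrays that affected few genes. The labels do not state what was repeated, and numbers are used here to name arrays.

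Members and lists were chosen with earlier results of these data known. All 49 members are accounted for. Of the further lists up to 4 called genes with the greatest differences are named, and other names were chosen after their values were seen. Of the 14 alternatives, described below, 4 leave out an array each. Promoters are from RefSeq (GRCm38.p6). Figures were drawn with matplotlib 3.10.9.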

Additional observations from a re-analysis of the deposited data

How the results depend on the processing

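The 14 alternatives gave 447 recomputed differences of the 33 tested members, of which 397 kept direction and side of the threshold, 35 lost the call, 3 gained it and 12 changed sign. Of the 27 called members 16 kept their call and direction under every alternative that could be computed, among them Vdr, Rora, Rorb, Nr3c1, Nr4a1, Nr4a2, Nr2c2 and Nrip1. The changes of sign were all among genes that did not pass. Nr1h3 had -0.15 with quantile normalization, -0.15 without SMRTmRID replicate 1, -0.04 without wild-type replicate 1 and, at most, 0.19 with an array left out. Esrrb had 0.24 with the mean of probe sets, 0.31 without SMRTmRID replicate 2, 0.34 without wild-type replicate 1 and, at the lowest, -0.42 with an array left out. Nr2c1 had 0.33 on its second probe set. Nr6a1 had -0.18 with quantile normalization, -0.0081 with median centring, -0.18 on its second probe set, -0.03 without SMRTmRID replicate 2 and -0.10 to 0.10 with an array left out, the lowest without wild-type replicate 1. The number of lower receptor genes, 8, was 5 with the mean of probe sets and 5 with the second probe set, and 5 to 7 with an array left out, where 5 stood without SMRTmRID replicate 1. With quantile normalization 9 receptor genes were lower, and the number of lower coactivator genes, 1, was 2, as Ncoa3 passed. The cause was not tested. With the replicate number as a block, 12 receptor genes were higher and 8 lower, and the pairing changed no member's call. Quantile normalization moved the median of all tested genes to -0.11, and 3133 genes were then higher and 4188 lower, against 3346 and 3867. Detection calls were not used here, so low signals set no firm bound, and no sample group was large enough to be screened for an outlying array.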

Other observations

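Some genes known to respond to a receptor differed in the same direction as the gene of that receptor, and others did not. They were chosen after their values were seen, and no explanation was tested. Cyp24a1, the classical vitamin D target that breaks the hormone down, had 25.6 and 15.7 in SMRTmRID and 31.7 and 4.31 in wild-type cells, which overlap and lie near the level of olfactory receptor genes, while Vdr differed 7.71-fold. Nr3c1 was higher in SMRTmRID. Of the glucocorticoid targets named here, Fkbp5 and Klf9 were higher too, Klf9 by 1.44, while Tsc22d3 was lower. Fkbp5 had 575 and 594 in SMRTmRID, against 301 and 300.1 in wild-type cells, and Tsc22d3 had 471 and 482 in SMRTmRID, against 1135 and 1174 in wild-type cells. Hsd11b1, whose enzyme regenerates active glucocorticoid, had 215 and 228 in SMRTmRID, against 29.5 and 28.8 in wild-type cells. Both wild-type signals were under the filter, so Hsd11b1 was tested through its level in SMRTmRID. Arntl, the clock gene that ROR and REV-ERB proteins share as a target, had 157 and 179.8 in SMRTmRID and 199.7 and 186 in wild-type cells and did not pass (adjusted p = 0.211 by limma), while Clock rose by 1.05.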
